A study of Rattus norvegicus with 12 samples.

Results

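The genes described here are those of 4 families of guidance cues and their receptors: ephrins and Eph receptors, semaphorins of classes 3 to 7 and plexins, slits and robos, and netrins. They were chosen by symbol alone, as every numbered member of these families that had counts, which gave 62 of the 21239 genes with counts. The 62 comprise 14 Eph receptors (9 of type A and 5 of type B), 8 ephrins (5 of type A and 3 of type B), 20 semaphorins, 9 plexins, 3 slits, 4 robos and 4 netrins. Expression was measured by bulk RNA-seq of tissue labelled as left atrium from 12 male rats, with 1 library per rat and 3 libraries in each of 4 groups. The WKY group held Wistar-Kyoto rats and the SHR group spontaneously hypertensive rats, and both received saline at 7.5 ml/kg/day. The ARB group held SHRs given valsartan, an angiotensin receptor blocker, at 30 mg/kg/day, and the ARNI group SHRs given sacubitril/valsartan, which adds a neprilysin inhibitor, at 60 mg/kg/day. Treatment lasted 4 weeks, in rats bought at 14 weeks of age. All 9 rats of the SHR, ARB and ARNI groups thus share the hypertensive strain, and the WKY group is the only normotensive control.

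Guidance cues are surface or secreted proteins first known for steering growing axons, and they act as well on blood vessels, heart muscle and the sympathetic nerves of the heart. Ephrins are anchored to the cell surface, type A by a lipid and type B by a membrane-spanning segment, and they bind Eph receptor tyrosine kinases on a neighbouring cell, so that both cells can respond. Class 3 semaphorins are secreted and signal through a neuropilin and a plexin, whereas classes 4 to 7 are mostly held at the membrane and bind plexins directly. Slits are secreted ligands of robo receptors, and netrins bind Dcc, neogenin and Unc5 receptors.

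Total counts ranged from 11252361 to 15823525 per library, so that 3 reads stood for 0.190 to 0.267 CPM (counts scaled to a common library total), a limit that covers counting error only. The tissue label did not hold for every library. The libraries named WKY 1 to 3 and ARNI 2 had 0.89 to 15.9 CPM of Myl7, the atrial myosin light chain, and 3489 to 4161 CPM of Myl2, its ventricular counterpart. The libraries SHR 2 and ARB 3 held both (Myl7 at 4478 and 5144 CPM, Myl2 at 2298 and 2573 CPM), and the other 6 libraries had at least 7568 CPM of Myl7 and at most 24.2 CPM of Myl2. Irx4, a transcription factor of ventricular muscle, had 26.2 to 49.7 CPM in those first 6 libraries and at most 0.07 CPM in the other 6. For the WKY and SHR groups, the strain named in a title is also the opposite of that in the library's name. Grouping followed the names, and every SHR against WKY direction would turn round if the names were wrong. Ndufa10l1, a gene that earlier results of these data set apart by strain, was at 0 in the 3 WKY libraries and at 54.0 to 119 CPM in the other 9, ARNI 2 included. Mettl24 and Serhl2, set apart in the same way, had 3.02 to 3.58 and 103 to 112 CPM in WKY, against at most 0.07 and 25.6 CPM in those 9. In these genes the libraries named SHR thus matched the ARB and ARNI libraries, whose titles and names both give the SHR strain. The genes were picked from these same data for their split by strain. Their match is therefore not an independent check of the names. Strain labels and chamber markers separate the WKY and SHR groups together, and their parts in the differences below cannot be told apart. Summed markers of other cells differed between the groups without overlap as well: smooth muscle and pericytes (5 of 5 markers found) had 247 to 309 CPM in WKY and 117 to 199 CPM in SHR, and epicardium (3 of 3) had 41.6 to 49.6 CPM and 111 to 239 CPM. Summed epicardial markers were low, at 39.7 and 30.3 CPM, in ARB 3 and ARNI 2 too. Of these markers, Upk3b and Msln followed the sum, but Wt1 did not. Wt1 overlapped between WKY (14.2 to 21.2 CPM) and SHR, where it was lowest in SHR 1 (13.6 CPM). In ARB 3 and ARNI 2, Wt1 was at 14.7 and 15.3 CPM. Acta2, a smooth muscle marker, overlapped between WKY and SHR as well. The part of smooth muscle, pericytes and epicardium was not tested. In bulk tissue, fewer cells of a type and less RNA per cell cannot be told apart either.

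Of the 62 genes, 52 had at least 1 read in all 12 libraries, 9 had fewer than 100 reads in the 12 libraries together, and Epha6 had no read in any. The heatmap of the other 53 sets each gene against its own mean. Epha4 and Sema3a were low in the 3 WKY libraries and in ARNI 2, and Efnb3, Sema7a and Ntn4 were high in those 4, with SHR 2 and ARB 3 often between.

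**Figure D1:**
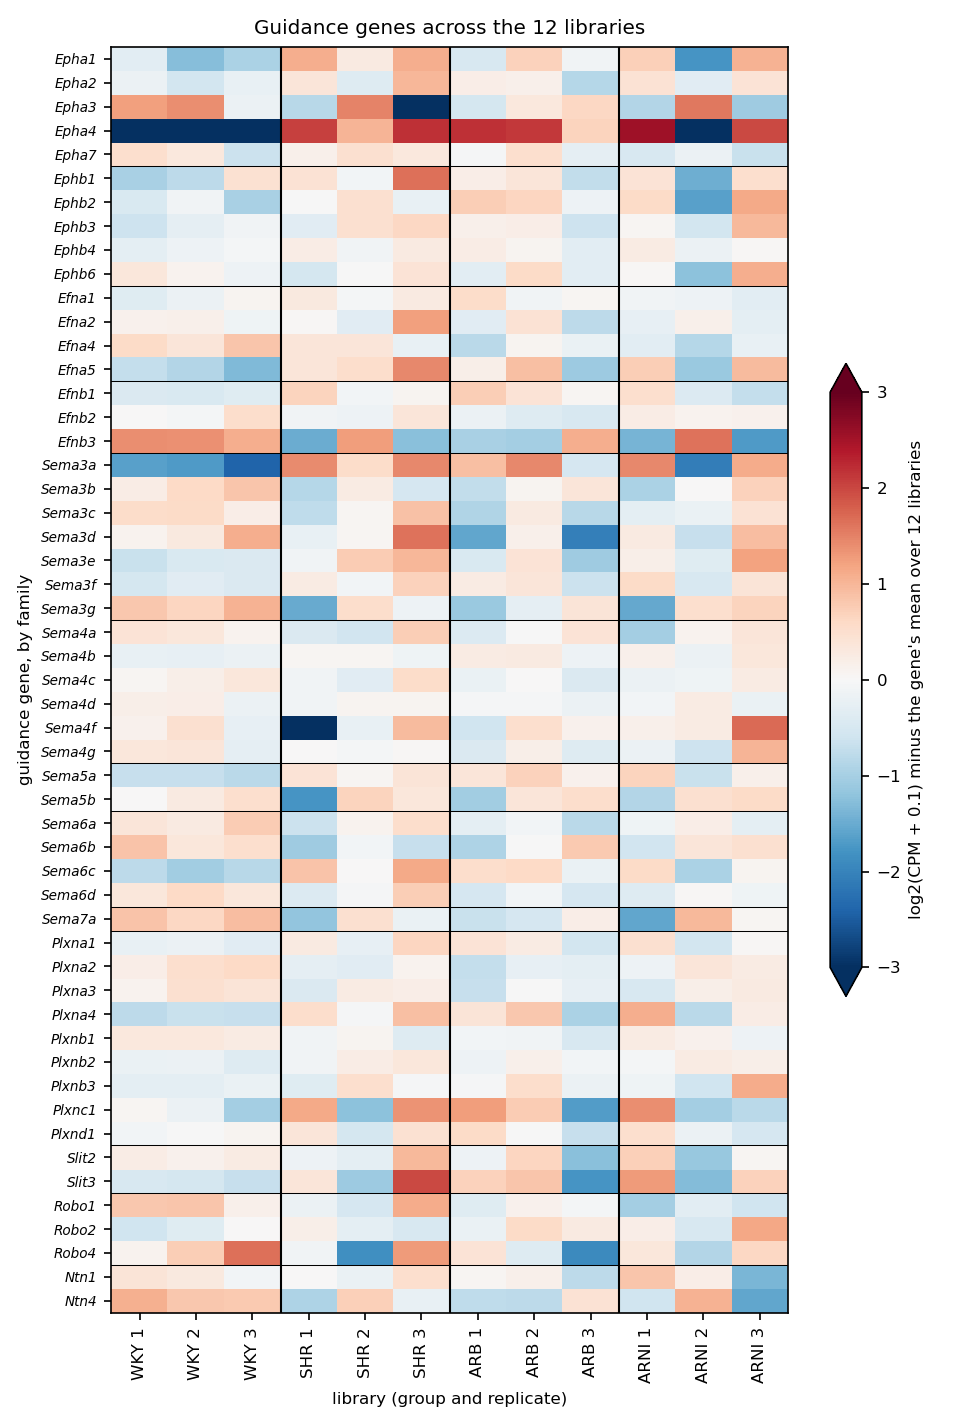
Heatmap of the 53 guidance genes with at least 100 reads in all, by family (vertical axis), in the 12 libraries (horizontal axis); colour is log2(CPM + 0.1) minus the gene's mean over the 12 libraries, cut at 3 in either direction. Epha4 is low in WKY 1 to 3 and ARNI 2 and high in the other 8 libraries.

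The first question was how untreated SHRs differed from WKY rats. In SHR libraries, the receptors Epha4, Epha1 and Plxna4 and the ligands Sema3a, Sema6c and Efna5 were higher, and the ligand Sema6b was lower. These 7 genes were called, with an adjusted p of at most 0.05 by edgeR's quasi-likelihood test and a log2 fold change of 1 or more in either direction, and Sema5a and Sema3f (higher) and Plxna2 (lower) passed the adjusted p alone. A further 40 tested genes did not pass, and 12 were too low to be tested. The 7 called are 14% of the 50 tested, beside 8.89% of all 13794 genes tested, and the 10 that passed the adjusted p are 20%, beside 20.6%. By the adjusted p, the families thus changed about as often as other genes. Of the 50, 25 were higher and 25 lower in SHR, with a median log2 fold change of -0.03 (all genes, 0.01), and 17 had an unadjusted p under 0.05.

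**Figure D2:**
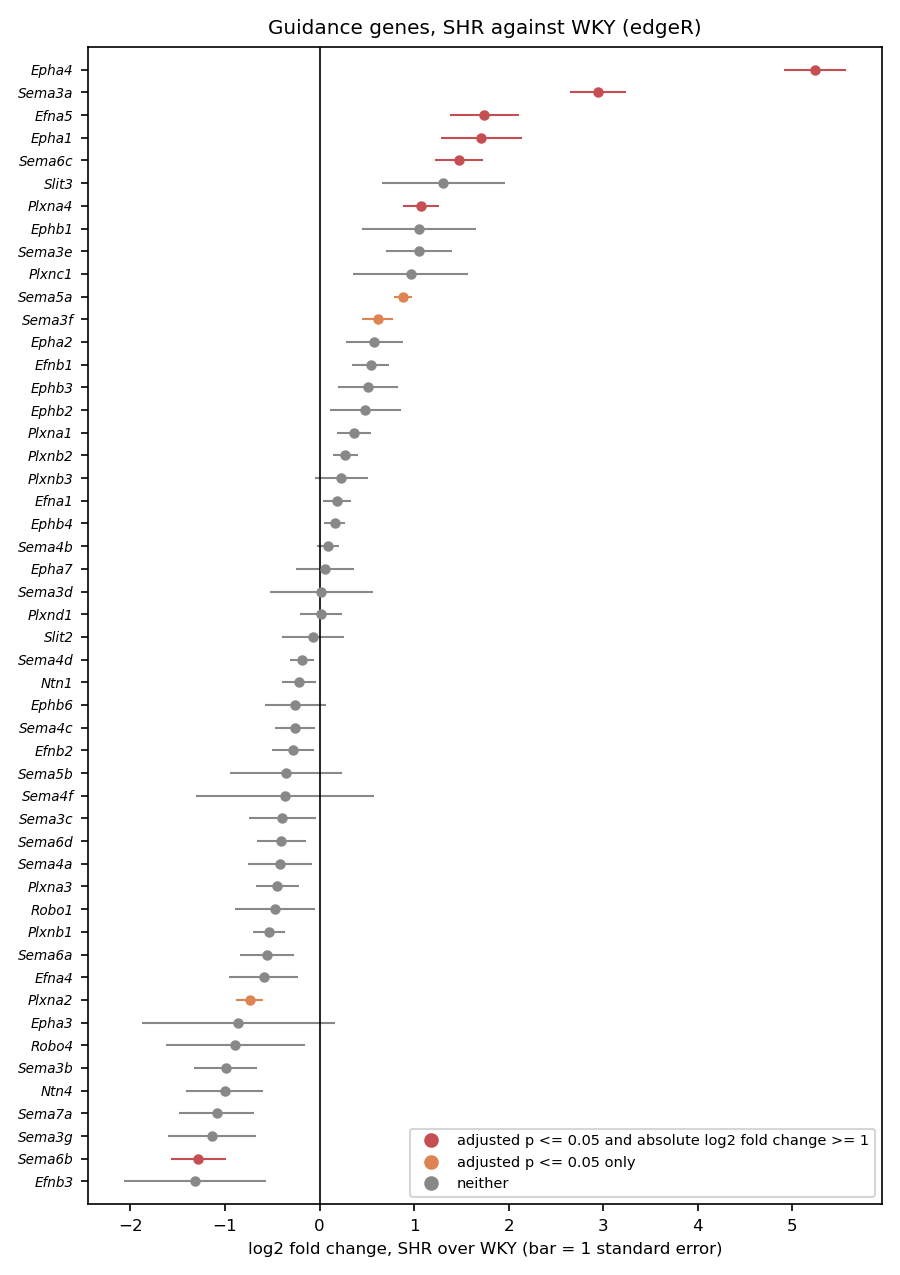
Log2 fold change of SHR over WKY (horizontal axis) for the 50 guidance genes tested (vertical axis); points are edgeR estimates, bars are 1 standard error, red marks the 7 called genes and orange the 3 that passed the adjusted p alone. Epha4 and Sema3a lie farthest to the right, and Sema6b is the only called gene on the left.

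Epha4 (NCBI gene 316539), a receptor that binds ephrins of both types, had the largest difference of the 50. It had 6.99, 6.09 and 7.82 CPM in WKY 1 to 3 and 338, 165 and 374 CPM in SHR 1 to 3. The ARB libraries had 371, 352 and 130 CPM, and the ARNI libraries 474, 4.48 and 319 CPM. Every library except ARNI 2 that was not from the WKY group thus lay at 130 CPM or above, and ARNI 2 lay below all 3 WKY libraries. Between SHR and WKY it was 37.7-fold higher (log2 fold change 5.24 ± 0.33 SE, adjusted p = 0.00149, n = 3 against 3). The difference passed with each of the 6 libraries left out, between 5.07 and 5.50. SHR 2 and ARB 3, which held both sets of chamber markers, had the lowest Epha4 of their groups.

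The other called Eph receptor, Epha1 (312279), was near the floor: 0.60, 0.26 and 0.36 CPM in WKY and 1.76, 0.96 and 1.78 CPM in SHR. Its difference (log2 fold change 1.71 ± 0.43 SE, adjusted p = 0.0375) did not overlap between groups but missed the threshold with any of 5 libraries left out, the exception being SHR 2 (highest adjusted p 0.133). Among ephrins, Efna5 (116683), a lipid-anchored ligand of EphA receptors, had 1.28, 1.13 and 0.80 CPM in WKY and 2.81, 3.15 and 6.03 CPM in SHR. It was 3.35-fold higher (log2 fold change 1.74 ± 0.37 SE, adjusted p = 0.0237), and ARB 3 and ARNI 2, at 0.95 and 0.94 CPM, fell within the WKY range. Efna5 passed in 3 of 6 leave-one-out fits, those without an SHR library (highest adjusted p 0.0932).

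The remaining Eph receptors and ephrins did not pass. Ephb4, the receptor known from venous endothelium, had the highest mean CPM of the type B receptors, on a scale that is not per length. Its 68.9 to 80.2 CPM in WKY and 77.6 to 101 CPM in SHR overlapped (log2 fold change 0.16, adjusted p = 0.331). Efna1, the type A ephrin of highest CPM, had 23.6 to 32.3 CPM in WKY and 29.2 to 37.4 CPM in SHR, which overlapped too (0.18, adjusted p = 0.386). Efnb1 (log2 fold change 0.54, adjusted p = 0.0939) was higher in every SHR library, at 73.8, 43.8 and 48.8 CPM, than in any WKY library, at 34.4, 33.7 and 36.3 CPM.

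Efnb3 (360546), a membrane-spanning ephrin, gave the largest decrease by estimate yet did not pass. It had 175, 171 and 141 CPM in WKY, but 23.4, 157 and 27.6 CPM in SHR, 33.7, 32.5 and 140 CPM in ARB and 25.3, 206 and 20.4 CPM in ARNI. The 6 libraries with Irx4 above 10 CPM held 140 CPM or more, and the other 6 held at most 33.7 CPM, whatever their group. With SHR 2 included, the log2 fold change was -1.32 ± 0.75 (SE, adjusted p = 0.232), and without that library it was -2.84 (adjusted p = 6.36e-05). The part of the chamber in this difference was not tested apart from strain.

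Among secreted semaphorins, Sema3a (29751), a repellent of sensory and sympathetic axons known for its role in the innervation of the heart, differed most. It had 4.35, 4.17 and 2.49 CPM in WKY and 36.6, 20.1 and 37.4 CPM in SHR, a 7.70-fold difference (log2 fold change 2.95 ± 0.29 SE, adjusted p = 0.00379). ARB had 25.8, 37.4 and 9.68 CPM and ARNI 37.1, 3.17 and 29.8 CPM. All 8 SHR-strain libraries other than ARNI 2 lay above the WKY range, and ARNI 2 lay inside it. Sema3f (315996), a ligand that acts through neuropilin 2, was 1.53-fold higher, with 24.2, 27.7 and 25.9 CPM in WKY and 41.5, 33.4 and 57.2 CPM in SHR (log2 fold change 0.62 ± 0.16 SE, adjusted p = 0.0428). It missed the threshold with any 1 of 5 libraries left out, all but SHR 2. Sema3c, the gene of highest CPM in the class and known for the shaping of the cardiac outflow tract, had 87.0, 87.8 and 68.1 CPM in WKY and 34.8, 61.7 and 109 CPM in SHR, and the groups overlapped (log2 fold change -0.39, adjusted p = 0.444). Sema3b and Sema3g tended the other way from Sema3a, with log2 fold changes of -0.99 and -1.14 (adjusted p = 0.0741 and 0.122).

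Of the membrane-bound semaphorins, Sema5a, Sema6c and Sema6b passed the adjusted p. Sema5a (310207), which carries thrombospondin repeats, had 30.9, 31 and 28.3 CPM in WKY and 65.9, 52.2 and 65.2 CPM in SHR. The difference was 1.84-fold (log2 fold change 0.88 ± 0.10 SE, adjusted p = 0.00471) and passed with each library left out. In the treated groups it had 64.6, 80.7 and 54.3 CPM (ARB) and 79.8, 31.5 and 55.8 CPM (ARNI). ARNI 2 lay just above the highest WKY library.

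Sema6c and Sema6b, of the class that binds type A plexins, moved in opposite directions. Sema6c (29744) had 13.8, 11.5 and 13.3 CPM in WKY and 43.1, 23.8 and 52.2 CPM in SHR (log2 fold change 1.47 ± 0.25 SE, adjusted p = 0.0146). Sema6b (84609) had 19.9, 14 and 15.7 CPM in WKY and 5.22, 10.3 and 6.75 CPM in SHR (log2 fold change -1.28 ± 0.29 SE, adjusted p = 0.0297). Neither gene overlapped between the 2 groups. Both lost the call in leave-one-out fits: Sema6c passed only without SHR 2 or SHR 3 (highest adjusted p 0.0733), and Sema6b only without SHR 2 (highest 0.106). Sema6d, the gene of highest CPM in the class, spanned 42.1 to 50.8 CPM in WKY and 25.2 to 55.8 CPM in SHR, which overlapped (log2 fold change -0.40, adjusted p = 0.283).

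Sema4d, the main ligand of plexin B1, was the steadiest of the 53 genes with at least 100 reads. It ran from 36.8 to 49.8 CPM over the 12 libraries, a 1.35-fold range, with a log2 fold change of -0.19 between SHR and WKY (adjusted p = 0.315). Sema7a, a lipid-anchored ligand that binds plexin C1, had 67.3, 57.5 and 71.5 CPM in WKY and 16.5, 51.9 and 32.3 CPM in SHR. Its groups did not overlap, but the difference did not pass (log2 fold change -1.09 ± 0.39 SE, adjusted p = 0.0910).

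**Figure D3:**
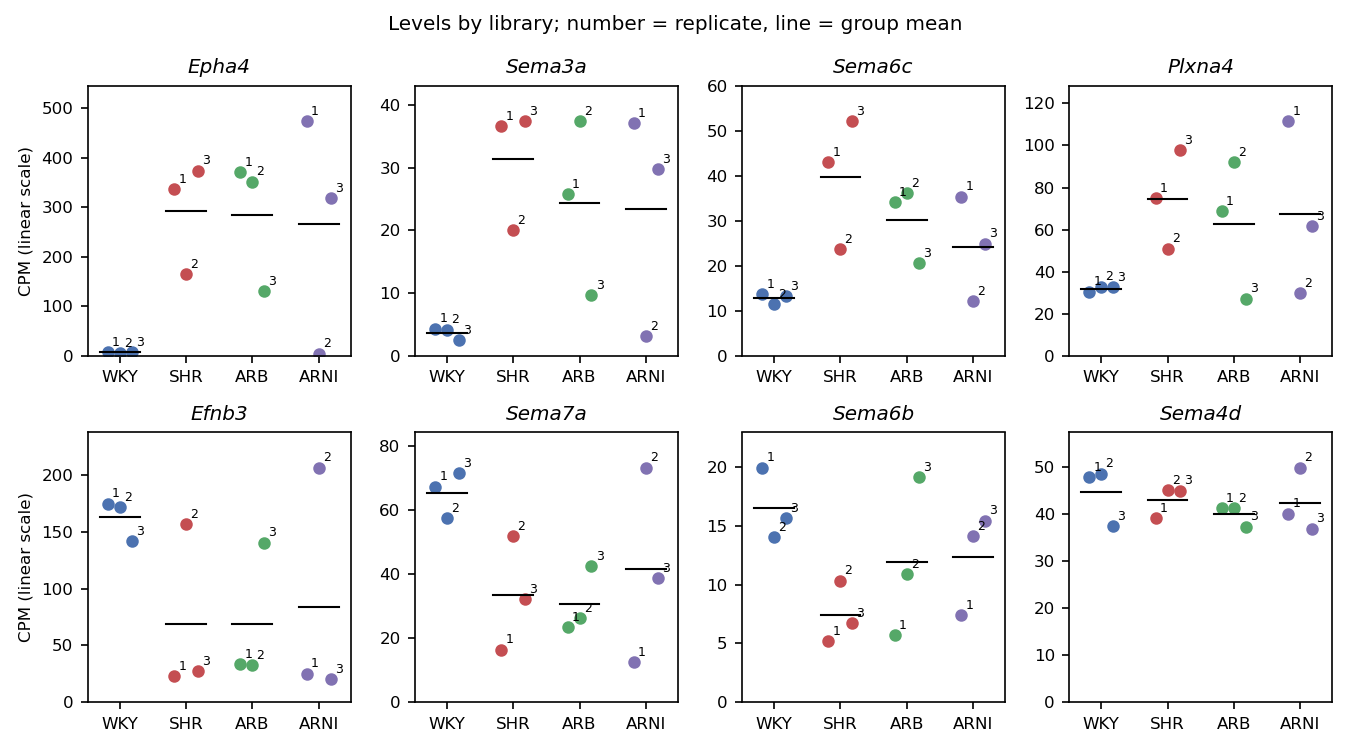
CPM (vertical axes, linear, from 0) of 8 guidance genes in the 4 groups (horizontal axes); each point is 1 library, its number the replicate, and the line the group mean. In Epha4, Sema3a and Plxna4, ARNI 2 sits with the WKY libraries, and in Efnb3 SHR 2, ARB 3 and ARNI 2 do so.

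The plot of levels by library shows how the same few libraries set the spread within groups. SHR 2 and ARB 3 were the lowest of their groups in Epha4, Sema3a, Sema6c and Plxna4 and the highest in Efnb3, Sema7a and Sema6b, while Sema4d showed no such split.

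Among plexins, Plxna4 (312213), which joins a neuropilin to receive Sema3a, had 30.6, 32.9 and 32.5 CPM in WKY and 75.0, 51.0 and 97.6 CPM in SHR. It was 2.10-fold higher (log2 fold change 1.07 ± 0.19 SE, adjusted p = 0.0162), and ARB 3 and ARNI 2, at 27.3 and 29.8 CPM, lay below the WKY range. Plxna2 (289392), a receptor of class 6 semaphorins, had 38.0, 46.7 and 50.2 CPM in WKY and 27.5, 26.1 and 35.7 CPM in SHR (log2 fold change -0.74 ± 0.14 SE, adjusted p = 0.0196). Both differences missed the threshold in some leave-one-out fits, with adjusted p up to 0.0744 for Plxna4 and 0.0818 for Plxna2.

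Plxnb1, the Sema4d receptor and the plexin of highest mean CPM, had 247, 246 and 235 CPM in WKY and 185, 211 and 151 CPM in SHR, without overlap, but did not pass (log2 fold change -0.54, adjusted p = 0.0638). Plxnd1, the endothelial receptor of Sema3e, had 182 to 203 CPM in WKY and 134 to 265 CPM in SHR (log2 fold change 0.01, adjusted p = 0.970). The remaining plexins, Plxna1, Plxna3, Plxnb2, Plxnb3 and Plxnc1, had log2 fold changes of -0.44 to 0.96 and none passed.

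No slit, robo or netrin passed. Slit3, the slit of highest mean CPM, ranged from 9.70 to 81.4 CPM within the SHR group alone, against 12.7 to 14.8 CPM in WKY (log2 fold change 1.31 ± 0.65 SE, adjusted p = 0.182). SHR 2 was the only SHR library below the WKY range, and SHR 3, the highest, also had the most summed fibroblast markers of the 12 libraries (1926 CPM, against 641 and 952 CPM in the other SHR libraries), whose part was not tested. Robo1, a slit receptor, had 3.91 to 6.35 CPM in WKY and 2.44 to 7.72 CPM in SHR (log2 fold change -0.47, adjusted p = 0.441). Ntn1, the best known netrin, had 26.0 to 35.5 CPM in WKY and 23.8 to 39.0 CPM in SHR (log2 fold change -0.22, adjusted p = 0.391). Ntn4, a netrin of basement membranes, had 48.8, 40.6 and 39.6 CPM in WKY and 12.1, 38.1 and 19.7 CPM in SHR, which did not overlap, with a log2 fold change of -1.0 ± 0.41 (SE, adjusted p = 0.118). It was lowest, at 7.73 CPM, in ARNI 3.

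The count of calls was highest when SHR 2 was left out. Without it, 15 genes were called (8 higher and 7 lower) and 22 passed the adjusted p, or 30% and 44% of the 50 tested. Over all genes the shares in that fit also rose, to 15.7% called and 37.8% passed. Efnb3, Ntn4 (log2 fold change -1.61, adjusted p = 0.00133), Sema7a (-1.61, adjusted p = 0.00374), Sema3b (-1.42), Sema3g (-1.72), Epha3 (-2.76), Slit3 (1.75) and Plxnc1 (1.41) were the 8 added calls. Leaving out SHR 1 or SHR 3 left 4 calls, and leaving out any WKY library left 2, Epha4 and Sema3a, while the share of all genes called was 4.12% without SHR 1, 8.23% without SHR 3 and 2.46% to 2.78% without a WKY library. Without SHR 2, the SHR group held at most 0.74 CPM of Myl2, so the groups then differed by chamber markers in every library.

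ARNI 2 is the only library that held Ndufa10l1 but not the atrial markers, so its levels were set beside those of the WKY and SHR groups. It lay nearer to the WKY mean than to the SHR mean in 37 of the 50 tested genes, beside 68.8% of all 13794 genes tested. The 37 include all 10 that passed and all 7 called, which were picked by their difference between SHR and WKY. The same share over all genes that passed or were called was not computed. In 18 of the 50 it fell outside the range of the other 8 SHR-strain libraries, beside 48.2% of all genes. Values of SHR and WKY did not overlap in 19 of the 50 genes, beside 49.6% of all genes tested. When ARB and ARNI libraries were joined to SHR, the 9 libraries stood apart from WKY in 3 of the 50 genes, beside 16.9% of all genes. These were Sema5a, Efna4 and Plxnb2. Plxnb2, a receptor of class 4 semaphorins, had 91.6 to 106 CPM in WKY and 108 to 152 CPM in the 9 others, with ARNI 2 at 143 CPM (SHR against WKY log2 fold change 0.27, adjusted p = 0.173). All these gaps were narrow. For Plxnb2 the gap ran from 106 to 108 CPM, and for Sema5a from 31 CPM in the highest WKY library to 31.5 CPM in ARNI 2. For Efna4 it was less than 1 read, at 0.87 CPM on either side. These CPM were scaled by library totals, and the gaps were not checked with the scaling used in the tests.

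**Figure D4:**
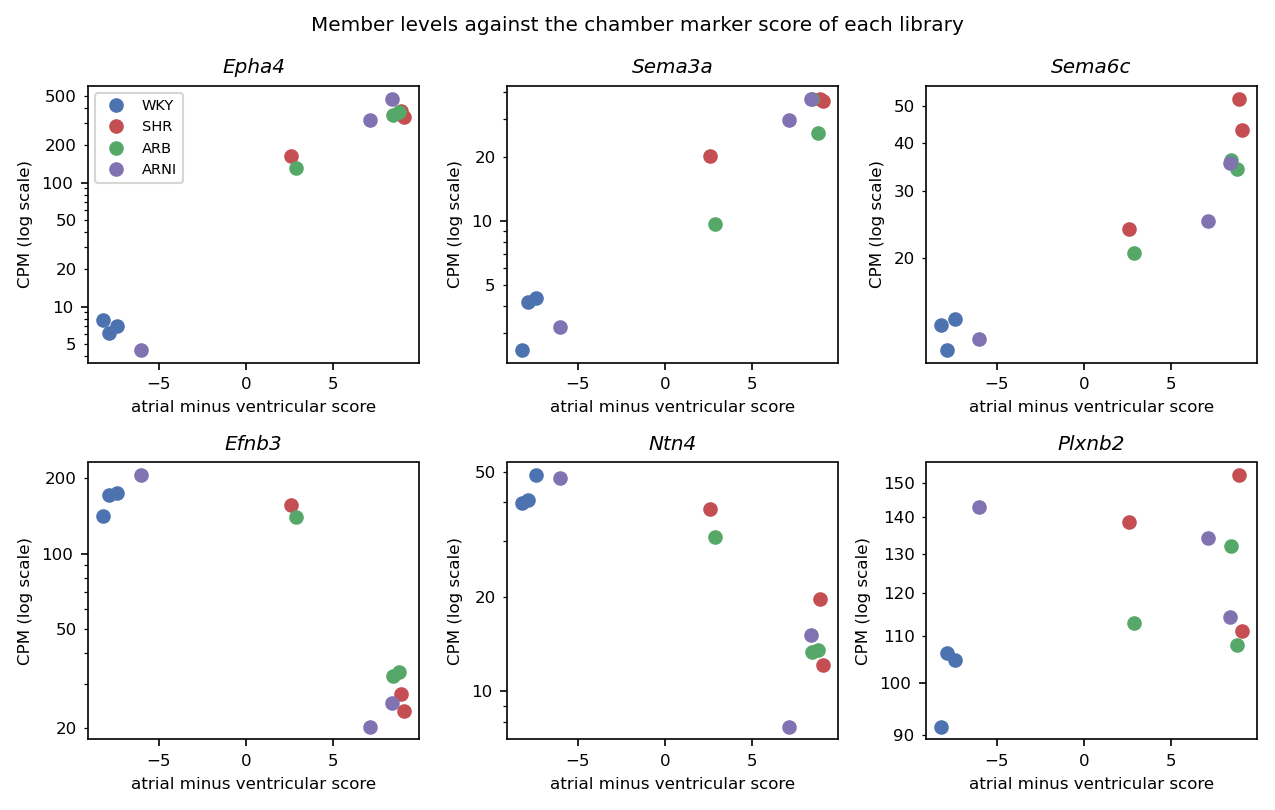
CPM (vertical axes, log scale) of 6 guidance genes against a chamber score of each of the 12 libraries (horizontal axes, in log2 units), the mean log2 CPM of 4 atrial markers minus that of 4 ventricular ones; colours are the 4 groups. Epha4, Sema3a and Sema6c are highest on the right, Efnb3 and Ntn4 on the left, and in Plxnb2 the ARNI library at a score of -6.03 lies among the other SHR-strain libraries.

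The plot against the chamber score places the 3 WKY libraries at -8.21 to -7.41, ARNI 2 at -6.03, SHR 2 and ARB 3 at 2.57 and 2.90, and the others at 7.14 to 9.08. With this score as a covariate in a fit of all 12 libraries, 0 of 53 guidance genes were called between SHR and WKY (7 had an unadjusted p under 0.05), and neither were most others, since 85 of all 14452 genes (0.588%) were called. Epha4 then had a log2 fold change of 0.14 (adjusted p = 0.942), Sema6c 0.04 (adjusted p = 0.951) and Sema3a -0.24 (adjusted p = 0.784). Scores of the WKY and SHR groups do not overlap, so these values extrapolate across the gap. Of the SHR-strain libraries in the fit, only ARNI 2 came near the WKY scores, so the slope there rests on that library alone.

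Promoters of called genes are shown as a description of their sequence. The RefSeq table (GRCr8) used here held a 300-base window, from 250 bases before to 50 after the annotated start, for 48 of the 62 genes and for 4 of the 7 called (the others being Epha4, Sema3a and Plxna4). Capitals mark matches, on either strand, to 4 short motifs that do not contain one another, and matches are a description only. AGGTCA, a site of nuclear receptors, was in 16.2% of 33469 windows. The core bound by Gata4 and its relatives, GATAA, was in 26.5%. For TEAD factors the letters were CATTCC (14.2%), and for NKX2-5 they were AAGTG (46.2%). Sequences run 5′ to 3′ on the gene's strand.
Sema6c, chr2:185426236-185426535, plus strand: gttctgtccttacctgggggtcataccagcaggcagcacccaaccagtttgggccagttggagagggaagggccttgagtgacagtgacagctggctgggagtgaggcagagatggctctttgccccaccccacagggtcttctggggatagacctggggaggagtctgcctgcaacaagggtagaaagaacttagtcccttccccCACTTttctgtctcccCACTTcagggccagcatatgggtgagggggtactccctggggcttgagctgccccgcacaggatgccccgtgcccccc
Sema6b, chr9:1047693-1047992, minus strand: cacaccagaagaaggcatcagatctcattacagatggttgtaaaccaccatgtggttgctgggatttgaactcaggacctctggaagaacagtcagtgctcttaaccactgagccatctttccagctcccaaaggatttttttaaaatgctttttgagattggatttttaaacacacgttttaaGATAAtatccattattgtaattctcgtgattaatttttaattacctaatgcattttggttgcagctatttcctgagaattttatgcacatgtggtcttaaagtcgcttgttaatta
Epha1, chr4:72227425-72227724, minus strand: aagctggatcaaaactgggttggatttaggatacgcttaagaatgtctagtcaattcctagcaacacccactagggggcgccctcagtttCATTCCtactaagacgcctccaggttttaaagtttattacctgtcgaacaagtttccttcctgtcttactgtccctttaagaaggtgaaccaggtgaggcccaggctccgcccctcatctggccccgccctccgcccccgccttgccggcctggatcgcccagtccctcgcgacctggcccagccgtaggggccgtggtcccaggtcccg
Efna5, chr9:110042138-110042437, minus strand: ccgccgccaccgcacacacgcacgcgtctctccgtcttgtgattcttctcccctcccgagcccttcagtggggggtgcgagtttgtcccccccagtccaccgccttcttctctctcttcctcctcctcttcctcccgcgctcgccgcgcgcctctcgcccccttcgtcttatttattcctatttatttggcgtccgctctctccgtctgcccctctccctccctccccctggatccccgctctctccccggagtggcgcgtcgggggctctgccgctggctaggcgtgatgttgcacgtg
The Sema6c window held AAGTG at 2 places, on the opposite strand, Sema6b held GATAA and Epha1 held CATTCC, each at 1 place, and Efna5 held none of the 4. The G and C content was 61.0% for Sema6c, 36.3% for Sema6b, 57.3% for Epha1 and 65.7% for Efna5, beside a median of 51.7% over all windows. Efna5 had 29 CpG pairs and Epha1 15, beside a median of 7, whereas Sema6c had 2 and Sema6b 3. The 3 genes that rose shared none of the 4 motifs.

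The next question was whether valsartan or sacubitril/valsartan changed these genes in SHRs. No guidance gene passed in any of the 3 treated comparisons, and over all genes the share called was 0% for ARB against SHR, 0% for ARNI against SHR and 0% for ARNI against ARB. ARB and ARNI were each compared with the same SHR libraries, so chance differences of those libraries enter both results. DESeq2 called 0 guidance genes in all 3, and 3, 7 and 18 genes in all.

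In ARB against SHR, 52 guidance genes were tested and 0 had an unadjusted p under 0.05, beside 225 of all 13979 genes. The estimates were lower in 38 and higher in 14, with a median log2 fold change of -0.21 (all genes, -0.01). They ran from -1.61 for Sema3d to 0.72 for Sema6b, and 51 were under 1 in size. Epha4 had an estimate of -0.01 ± 0.43 (SE, adjusted p = 1.0). Without the libraries that had over 10 CPM of Irx4 (SHR 2 and ARB 3), 33 were lower and 20 higher, with a median of -0.12. Without SHR 3 alone, 31 were lower and 21 higher, with a median of -0.06.

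In ARNI against SHR, 1 of 51 tested genes, Epha7, had an unadjusted p under 0.05, beside 227 of all 13955 genes. Epha7, a type A Eph receptor, had 5.46, 6.93 and 6.12 CPM in SHR and 3.49, 4.33 and 3.05 CPM in ARNI. The values did not overlap, but the difference failed the correction (log2 fold change -0.68 ± 0.27 SE, adjusted p = 0.999), and the WKY libraries, at 7.01, 6.19 and 3.13 CPM, covered most of that range. Estimates were higher in 24 and lower in 27, with a median of -0.03, and ran from -0.85 for Robo1 to 1.07 for Sema4f. Without SHR 3, 37 were higher and 15 lower, with a median of 0.12. These values come from the fit without a replicate block. With the block, 3 of 51 guidance genes and 731 of all genes had an unadjusted p under 0.05, 21 guidance genes were higher and 30 lower, and 0 passed. Sema4f had its highest level, 2.99 CPM, in ARNI 3, the library with the most Dbh and Prph (16.5 and 62.7 CPM), markers of autonomic neurons. ARNI 3 was also highest in summed smooth muscle and pericyte markers (692 CPM, against at most 309 CPM elsewhere). It had 206 CPM of adipocyte markers, less than ARB 2 (330 CPM). The part of these cells in that level was not tested.

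In ARNI against ARB, 2 of 50 tested genes had an unadjusted p under 0.05, beside 539 of all 13948 genes. Efnb2, the ligand of Ephb4, had 7.14, 6.19 and 5.79 CPM in ARB and 9.48, 8.73 and 8.89 CPM in ARNI (log2 fold change 0.56 ± 0.18 SE, adjusted p = 0.993). Plxna2 had 20.2, 27.8 and 27.2 CPM in ARB and 29.6, 42.6 and 38.9 CPM in ARNI (0.63 ± 0.23 SE, adjusted p = 0.993). Neither gene overlapped between the groups, and neither passed the correction. Estimates were higher in 39 and lower in 11, with a median of 0.24 (all genes, 0.02). Without the libraries that had over 10 CPM of Irx4 (ARB 3 and ARNI 2), 37 were higher and 14 lower, with a median of 0.17. Without ARB 3 alone, 31 were higher and 21 lower (median 0.15), and without ARNI 3 alone, 30 and 21 (median 0.16).

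**Figure D5:**
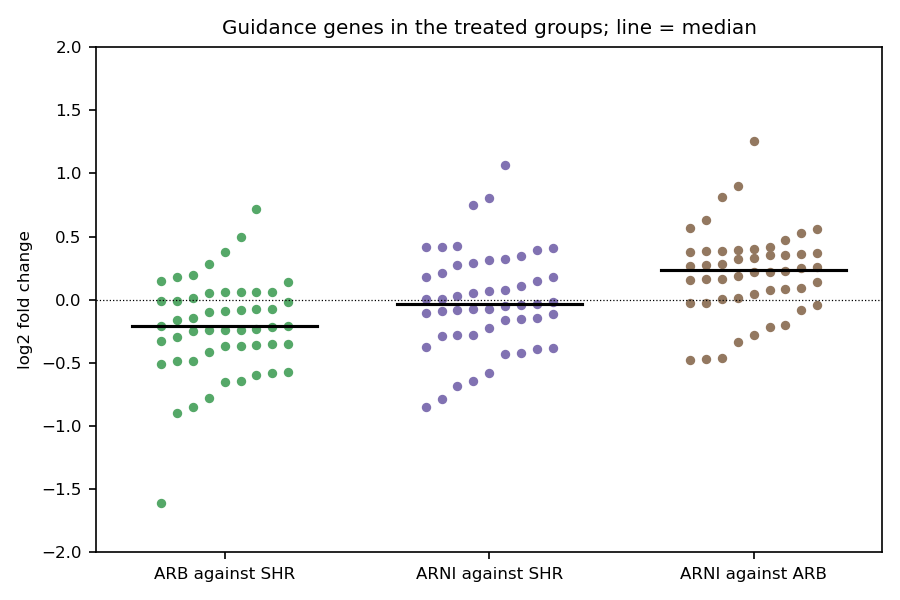
Log2 fold changes (vertical axis) of the guidance genes in the 3 treated comparisons (horizontal axis); each point is 1 of the 52, 51 and 50 genes tested, the line is the median, and the side-by-side spread has no meaning. The medians lie at -0.21, -0.03 and 0.24, and no gene passed the adjusted p.

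The plot of the treated comparisons shows estimates mostly within 1 log2 unit. For Epha4 in ARNI against SHR, the log2 fold change was -0.11 ± 1.21 SE, with ARNI 2 at 4.48 CPM beside 474 and 319 CPM, and a change within that error was not detectable.

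Co-receptors and signalling partners outside the chosen families were counted in the same fits, from a list of 65 genes. Between SHR and WKY, 12 of 59 tested were called (20.3%), 8 higher and 4 lower, and 19 passed the adjusted p (32.2%), 12 higher and 7 lower, beside the 8.89% and 20.6% of all genes. Neuropilin 2 (Nrp2), the co-receptor of Sema3f, had 39.9, 38.9 and 44.1 CPM in WKY and 10.7, 18 and 17.6 CPM in SHR (log2 fold change -1.54 ± 0.21 SE, adjusted p = 0.00764). Neuropilin 1 (Nrp1), the co-receptor of Sema3a, had 227 to 261 CPM in WKY and 182 to 289 CPM in SHR, which overlapped (-0.23, adjusted p = 0.328). Nrp2 thus fell where its ligand Sema3f rose, and ARNI 2 had 24.9 CPM of it, between the 2 groups.

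Of netrin receptors, neogenin (Neo1) rose from 65.6, 59.0 and 59.4 CPM in WKY to 162, 120 and 146 CPM in SHR (log2 fold change 1.08 ± 0.12 SE, adjusted p = 0.00471), and ARNI 2 had 80.2 CPM. Unc5c, a receptor of repulsive netrin signals, fell from 2.47, 1.91 and 1.99 CPM to 0.56, 0.95 and 0.41 CPM (-1.88 ± 0.40 SE, adjusted p = 0.0240). Flrt1 and Flrt2, membrane ligands of Unc5 receptors, had log2 fold changes of 1.74 and 1.22 (adjusted p = 0.0157 and 0.0171), and Ntng2, a lipid-anchored netrin relative, -1.31 (adjusted p = 0.0171). Inside the cell, Dpysl2, a mediator of Sema3a signals to microtubules, was higher (log2 fold change 1.26, adjusted p = 0.0133), as were Mical3 (1.09), Chn2, a GTPase-activating protein for Rac (2.21), and Pak1, a kinase downstream of Rac (1.59), all with adjusted p of at most 0.0281. Tiam1 (1.39) rose and Ablim1 (-1.39) fell. The count of 12 calls became 2 with any WKY library left out, 3 without SHR 1, and 1 with the chamber score as a covariate. Counts over all genes fell in the same fits, from 1226 to between 348 and 393, to 577 and to 85. In the treated comparisons 0 of the related genes were called (1, 2 and 3 with an unadjusted p under 0.05).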

How the data were processed

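RNA-seq was carried out on 12 libraries, 1 per rat. The authors filtered reads with SOAPnuke, aligned them and estimated counts with RSEM. The submitters' processing notes name HISAT2 2.0.4, Bowtie2 2.2.5 and Rnor_6.0. The gene annotation and the strand setting are not given in the sources used here. The authors deposited estimated (expected) counts per gene without normalization, for 37246 listed genes, 21239 of them with counts. A read matching several genes is shared between them, and 21.4% of the guidance gene values were not whole. The same table holds columns of the authors' own SHR against WKY comparison (log2 fold change and p-value), which were not used.

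Libraries were grouped by name. CPM were computed from the total of each library. Expected counts were rounded, genes with low counts were removed by filterByExpr, libraries were scaled by TMM, and the 6 libraries of each pair were compared by edgeR's quasi-likelihood test (edgeR 4.0.16, R 4.3.3) with Benjamini-Hochberg adjustment over all genes tested. Genes were called at adjusted p of at most 0.05 and absolute log2 fold change of at least 1, the study's thresholds. Standard errors were derived from the F statistic. Alternatives were DESeq2 1.42.0, its size factors in edgeR, no filter, 1 fit of 12 libraries, a replicate block, a chamber score as covariate, the adjusted p alone, leaving out each library, and (chosen after seeing the data) leaving out libraries with over 10 CPM of Irx4. On simulated counts for the SHR against WKY comparison, edgeR recovered 100% of 200 changed genes among 13863 with 1 false call. The simulation gave all genes and libraries the same spread, and large changes only to genes with ample reads. Real replicates spread unequally, with a chi-square per degree of freedom of 45.2 to 112 in SHR and 4.19 to 6.67 in WKY. It therefore checked the code and does not measure power or false calls in these data.

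Replicates of a group differed by more than sampling noise (lowest chi-square per degree of freedom 4.19). Same-numbered libraries were checked for pairing by correlating their deviations from the group means. Correlations were 0.52, 0.47 and 0.19 for ARNI and SHR, so the fit with the block is given beside the one without. No label pairs these rats, and the paper states that the SHRs were divided between groups at random. In the other comparisons the correlations were not all above 0.1. Values were named for each gene with adjusted p of at most 0.05, for Epha4, for the gene of highest mean CPM in each family, and for up to 10 called related genes. Other genes were named after their values were seen. The guidance genes and all lists were chosen with earlier results of these data known. Python 3.11.15 with pandas 2.3.3 and matplotlib 3.10.9 was used for tables and plots.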

Additional observations from a re-analysis of the deposited data

How the results depend on the processing

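Between SHR and WKY, 7 guidance genes were called by edgeR, 10 by DESeq2, 7 with DESeq2's size factors, 6 without a filter, 3 in 1 fit of 12 libraries, and 0 with the chamber score as a covariate. The shares of all genes called were 8.89%, 10.1%, 9.04%, 6.62%, 4.01% and 0.588% in the same order. With each library left out in turn, the count ran from 2 (any WKY library) to 15 (SHR 2), and was 4 without SHR 1 or SHR 3. With the replicate block it was 4 (4.94% of all genes); the replicate numbers did not pair these libraries (correlations 0.02, -0.06 and -0.10). DESeq2 split its calls 5 higher and 5 lower, against 6 and 1 for edgeR. In the treated comparisons the count was 0 under every alternative, including the block for the ARNI and SHR libraries. Over the 21 genes named by rule, 252 alternative values were computed, of which 190 kept direction and side of the threshold, 44 fell below it, 7 newly passed it and 11 changed direction. All 11 came with the covariate, where the log2 fold change was -0.24 for Sema3a, -0.0035 for Sema5a, -0.66 for Plxna4, -0.24 for Efna5, -0.69 for Epha1, -0.40 for Sema3f, -0.15 for Ephb4, 2.38 for Efnb3, 0.30 for Sema4d, 0.96 for Sema7a and -2.05 for Slit3. The covariate extrapolates between groups whose scores do not overlap. The cause of the other changes was not tested. Genes near 0.27 CPM are limited by depth.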

Other observations

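Several guidance genes were close to the detection limit in this tissue. Epha5, Epha8, Epha10, Efna3, Robo3, Slit1, Ntn3 and Ntn5 had between 4 and 30 reads in the 12 libraries together, and none exceeded 0.481 CPM in any library. Epha8 and Epha10 had reads in WKY libraries only, with 4 reads each in all, which is too few to compare groups. Dcc, the netrin receptor of commissural axons, reached at most 0.158 CPM. Of the other netrin receptors, neogenin ran from 59.0 to 171 CPM and Unc5b from 33.0 to 54.7 CPM.

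Members with little spread were Ephb4 (67.6 to 101 CPM over the 12 libraries), Sema4b (19.7 to 29.7 CPM) and Plxnb2 (91.6 to 152 CPM). Sema4b did not overlap between WKY (19.7 to 20.7 CPM) and SHR (21.5 to 24.5 CPM), with a log2 fold change of 0.09 (adjusted p = 0.605). Epha3, an Eph receptor that binds type A ephrins, had its highest levels in ARNI 2 (13.3 CPM), SHR 2 (12.5 CPM) and WKY 1 and 2 (10.4 and 11.7 CPM), and its lowest in SHR 3 (0.41 CPM). ARNI 3 had the highest Ephb2, Ephb3, Ephb6, Plxnb3 and Robo2 of the 12 libraries (3.80, 5.90, 3.53, 10.7 and 1.70 CPM). That library was also highest in Dbh and Prph, and in summed smooth muscle and pericyte markers (692 CPM). It held adipocyte markers too (206 CPM), though less than ARB 2 (330 CPM). The part of these tissues in the levels was not tested.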
